A study of Mus musculus with 2 samples.

Results

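Ccl3/Ccl4-low neutrophils of the alkali-burned mouse cornea were chosen by the UMI counts of 6 genes, which makes those genes a description of the choice and not a result. From the NaOH-injured library, barcodes with at least 500 UMIs (unique molecular identifiers, which count captured transcripts once each) and at most 20% mitochondrial UMIs were kept. Cells were then selected on Krt5+Krt14 below 3000 CPM (the UMIs of the genes scaled to a total of 1000000 UMIs per cell), S100a8+S100a9 of at least 5000 CPM and 5 UMIs, and Ccl3+Ccl4 below 10000 CPM. The rule gave 471 of the 9007 analysed injured cells, out of 16163 analysed cells in both libraries, a share of 5.23% (95% exact binomial interval 4.78 to 5.71). A further 358 cells passed the S100a8 and S100a9 limit but held 10000 CPM or more of Ccl3+Ccl4, so the Ccl3/Ccl4-low cells were 56.8% (53.4 to 60.2) of 829 gated cells. The study sequenced single cells, by a droplet-based 10x Genomics method, from the cornea and limbus (the rim of the cornea) of mice of wild-type genotype. It made 1 library from uninjured control tissue and 1 from tissue given a sodium hydroxide (NaOH) burn. The stated subject of the study is the signalling that an alkali burn stimulates. The front of the eye was freed of lens, iris and most conjunctiva and was digested with liberase and trypsin, and no source used here gives age, strain or the delay from burn to collection. Each condition is a single library, so differences cannot be set against replicates, no p-value is given, and the 95% intervals cover counting error only.

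Neutrophils are short-lived granulocytes that leave the blood for injured or infected tissue, drawn by chemokines that bind the receptor CXCR2 and kept alive by granulocyte colony-stimulating factor. They carry ready-made proteases and antimicrobial proteins in granules, make reactive oxygen through the NADPH oxidase, and on activation write new messages for chemokines such as CCL3 and CCL4, which draw other leukocytes. In the cornea they are known as early entrants after a chemical burn.

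The injured library held 108863350 UMIs in 9399 barcodes, the uninjured 85457541 UMIs in 7490 barcodes, and 15 barcodes occurred in both, 1 of them in a Ccl3/Ccl4-low cell. The Ccl3/Ccl4-low neutrophils were shallow cells, with 520 to 14061 UMIs, a median of 846 UMIs and a median of 505 genes, and mitochondrial UMIs of 0.644% at the median. The Ccl3/Ccl4-high neutrophils had a median of 892 UMIs, and all other injured cells together 11126 UMIs and 3.51% mitochondrial UMIs. No cell stood under the limit of 500 UMIs, so the depth of the shallowest cells is set by the deposited files. With at least 1000 UMIs required, the share of Ccl3/Ccl4-low cells was 1.31% of analysed cells, because 364 of the 471 lie under that depth.

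The limit of 10000 CPM cuts through a continuous range and does not separate groups of cells. Of the 471 cells 133 held no Ccl3 or Ccl4 UMI, 71 stood above 0 and below 2000 CPM, 131 at 2000 to 5000, 97 at 5000 to 8000 and 39 at 8000 to 10000 CPM. On the other side, 59 cells stood at 10000 to 12500 CPM. The cells nearest the limit held 9926, 9859 and 9643 CPM inside and 10014, 10078 and 10092 CPM outside. In UMIs the Ccl3/Ccl4-low cells held 0 to 60 Ccl3 and Ccl4 molecules, median 2, and the Ccl3/Ccl4-high cells 6 to 169, median 22. At a depth near 846 UMIs 1 molecule is worth over 1000 CPM, so a cell close to the limit can change side with a single UMI. With every gated cell thinned at random to 500 UMIs, 55.7% stood under the limit, against 56.8% before thinning. At the S100a8+S100a9 limit 2 cells held 5000 to 6000 CPM inside, against 4 at 4000 to 5000 CPM just outside. These counts cannot show how many cells lie near it, because the rule also asks for 5 UMIs of S100a8+S100a9. In a cell of under 1000 UMIs, as 364 of the 471 were, 5 UMIs are worth over 5000 CPM. The limit in UMIs therefore decides for those cells, and cells just under it were not counted. At the keratin limit 84 cells stood at 2000 to 3000 CPM of Krt5+Krt14 inside and 36 cells at 3000 to 4000 CPM outside.

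**Figure D1:**
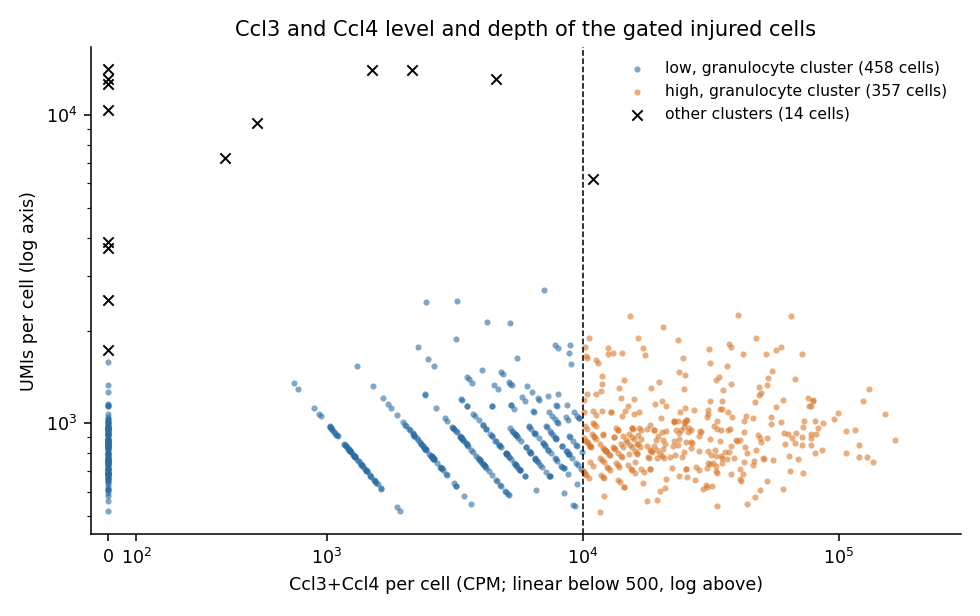
Ccl3+Ccl4 level of each gated injured cell (x axis, CPM, linear below 500 and logarithmic above) against its depth (y axis, UMIs, log axis). Points are cells, the dashed line is the 10000 CPM limit, and crosses are the 14 gated cells outside the granulocyte cluster. Cells with a Ccl3 or Ccl4 UMI run across the limit without a gap, in bands of equal UMI number, and the 13 crosses to its left hold 1724 to 14061 UMIs.

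Clustering of all 9007 injured cells placed 458 of the 471 cells (97.2%, 95.3 to 98.5) and 357 of the 358 Ccl3/Ccl4-high cells in 1 granulocyte cluster of 1017 cells, led by Stfa2l1, Mirt2, Acod1, Ccl4 and Cxcr2. The other 13 cells lay in other clusters: 4 in cluster 11, led by Psca and Ltf, 3 in cluster 4, led by Ccl19 and Wif1, 2 in the endothelial-gene cluster 5, 2 in the C1q-gene cluster 9, 1 in cluster 13, led by Myh11, and 1 in cluster 15, led by S100a9 and S100a8, with Il1b, Srgn and Cxcl2 also among its 10 leading genes. They held 1724 to 14061 UMIs each and 119750 of the 531881 UMIs of the population, 22.5%, and weigh that much in any level summed over the 471 cells. Of the 4 cells in cluster 11, those with 14061 and 12591 UMIs held 304 and 260 UMIs of S100a9, no S100a8, no Srgn and no Tyrobp; Srgn and Tyrobp are expressed across leukocytes. The 3 cells in cluster 4 held 83 to 184 UMIs of the collagen gene Col1a1 and 189 to 225 UMIs of Dcn, decorin, together with 36 to 130 UMIs of S100a9. Levels are given for all 471 cells and, as stated, for the 458 cells of the granulocyte cluster alone, a step added after seeing the data.

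The label was checked against genes that the rule did not use. Il1r2, a decoy receptor that binds interleukin-1 without signalling, stood at 2337 CPM (2209 to 2471) in the 471 cells and 27.6 CPM in all other injured cells. Per cell it ranged from 0 to 14286 CPM with a median of 2249.7, and 378 of 471 cells held a UMI. Csf3r, the receptor for granulocyte colony-stimulating factor, stood at 739 CPM (668 to 816) against 4.68 CPM, and Cxcr2, the receptor for CXCL1 to CXCL3 and related chemokines, at 408 CPM (356 to 466) against 2.44 CPM. A UMI of Csf3r, Cxcr2 or Il1r2 was found in 80.6% (76.6 to 84.1) of the 458 cells thinned to 500 UMIs, 91.3% before thinning, and in 2.28% (1.93 to 2.67) of 6487 thinned Krt5/Krt14-high cells, 10.6% before thinning. In 799 thinned collagen and decorin-high cells the share was 0.501% (0.137 to 1.28), and 15.1% before thinning. The median depths before thinning were 844, 11828 and 11854 UMIs. The share in Krt5/Krt14-high cells may include expression as well as free RNA, which was not tested. Among the 471 cells, 3 of those in cluster 11 held 6, 17 and 9 UMIs of Il1r2 and none of Csf3r or Cxcr2. By the rule these 3 are not Krt5/Krt14-high cells. Thinned MHC class II-high cells reached 35.8% (25.4 to 47.2), with Il1r2 at 742 CPM, Csf3r at 5.94 CPM and no Cxcr2 UMI. The remaining marker, Retnlg, a resistin-like secreted protein of neutrophils, was sparse: 20 of 471 cells held a UMI, at 63.9 CPM (44.3 to 89.3). Ly6g, the surface protein most used to sort mouse neutrophils, had 3 UMIs in 3 of the 471 cells, and 5 UMIs in all other injured cells.

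**Figure D2:**
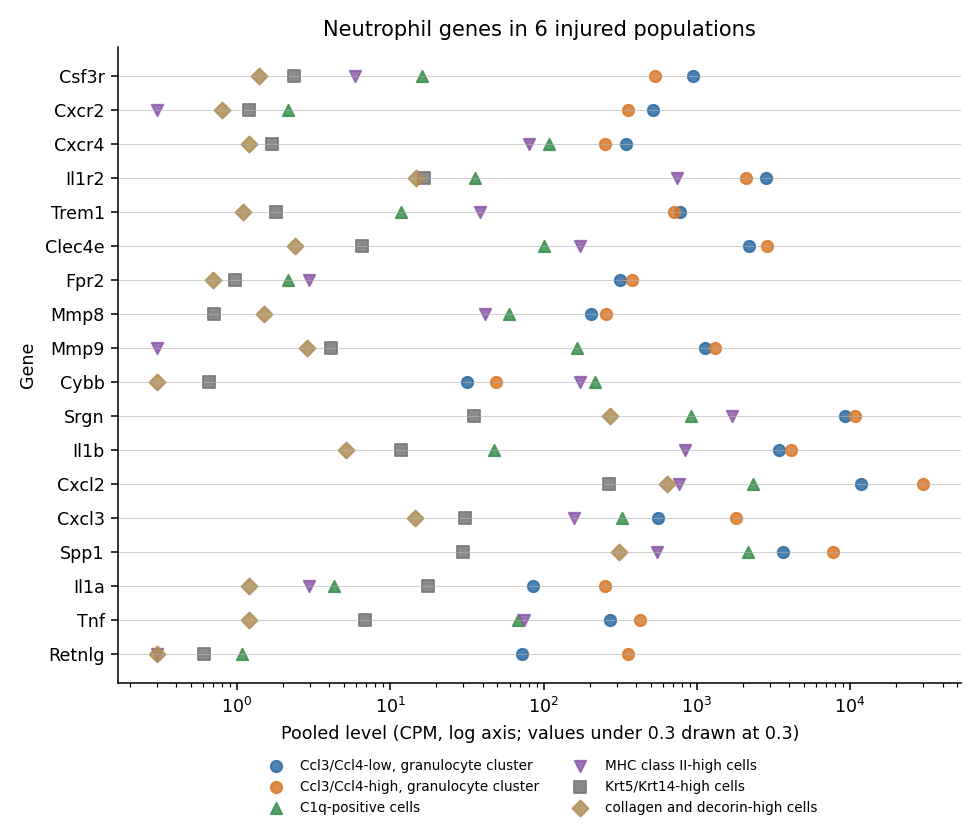
Pooled level of 18 neutrophil genes (x axis, CPM on a log axis, levels under 0.3 drawn at 0.3) in 6 injured populations given by colour and shape. Both neutrophil groups lie to the right of the epithelial and stromal populations for each gene drawn, and Cxcl2, Cxcl3, Spp1, Il1a and Retnlg are at least 2-fold lower in the low than in the high group.

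All other injured cells number 8536 and include the 358 Ccl3/Ccl4-high neutrophils and 202 further cells of the granulocyte cluster that the gate left out, so levels of neutrophil genes in them are not those of cells without such genes. Against them 5379 genes had a mean of at least 20 CPM over the 2 populations and were counted as measured. Of these, 1426 (26.5%) were at least 2-fold higher and 1159 (21.5%) at least 2-fold lower in the Ccl3/Ccl4-low neutrophils. The cells were selected on this contrast, so these shares are descriptions from which nothing is read. The median gene differed by 0.10 on the log2 scale. A gene under 20 CPM in all other cells was measured only through its level in the Ccl3/Ccl4-low cells and had to differ, so such members are counted apart. Every gene named in this contrast with under 20 CPM in all other cells is of this kind. The direction of its ratio was fixed by the filter, and it is not among the other members counted. Likewise, a gene under 20 CPM in the Ccl3/Ccl4-low cells was measured only through all other cells and had to be lower. Such members were not counted apart, so counts of lower members may include them. The shares of 26.5% and 21.5% were taken over all measured genes, both kinds included. No share over all genes was taken without them, so nothing about a list is read from its counts. Of 15 chemoattractant receptor genes 10 were measured, 8 of them only through the Ccl3/Ccl4-low cells, and the other 2 were at least 2-fold higher. Ccr1, a receptor for CCL3 and other CC chemokines, was the most abundant at 1850.04 CPM against 22.8, 81.1-fold (75.2 to 87.4), with a UMI in 379 cells. C5ar1, the receptor for complement fragment C5a, stood at 517 against 8.99 CPM and Fpr2, a formyl peptide receptor, at 250.1 against 2.40 CPM. Ptafr, the platelet-activating factor receptor, stood at 331 against 4.38 CPM. Cxcr2 had a ratio of 167 (139 to 201), the largest among genes of at least 200 CPM in these cells, and Cxcr4, which holds neutrophils in the bone marrow, stood at 271 against 5.09 CPM.

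Of 19 colony-stimulating factor and interleukin receptor genes 18 were measured, 12 only through the Ccl3/Ccl4-low cells. Of the other 6, 3 were at least 2-fold higher and none lower. Besides Csf3r and Il1r2, Tnfrsf1b, a receptor for tumour necrosis factor, stood at 431 against 5.81 CPM, and the shared receptor chain Csf2rb at 384 against 8.39 CPM. Il1rap, the signalling partner chain of the interleukin-1 receptor, stood at 348 against 10.4 CPM. Of 21 pattern recognition and Fc receptor genes 18 were measured, 15 only through these cells, and the other 3 were at least 2-fold higher. The most abundant was Cd14, the co-receptor for lipopolysaccharide, at 2916 against 45.4 CPM, followed by Fcer1g, a signalling chain shared by several Fc receptors and lectins, at 2194 against 65.7 CPM. The C-type lectin genes came next, Clec4d at 1929 against 24.8 CPM and Clec4e, which senses mycobacterial glycolipid and dead cells, at 1713 against 19.8 CPM. Trem1, which amplifies inflammatory signals of myeloid cells, was 134-fold higher (116 to 154), and Mefv, the inflammasome protein pyrin, 103-fold (81.5 to 130).

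Genes for adhesion, killing and movement were counted in the same way. Of 17 leukocyte adhesion genes 13 were measured, 9 only through the Ccl3/Ccl4-low cells, and 2 of the other 4 were at least 2-fold higher. The adhesion genes included Cd44, a hyaluronan receptor, at 2459 against 195 CPM, and Selplg, the selectin ligand PSGL-1, at 297 against 3.79 CPM. Of 7 NADPH oxidase genes 6 were measured, 4 only through these cells, among them the small GTPase Rac2 at 406 against 5.62 CPM. Cybb, the catalytic subunit, was under the level for measurement, at 24.4 CPM with a UMI in 10 cells. All 25 actin and migration genes were measured, 8 only through these cells. Of the other 17, 9 were at least 2-fold higher and 1 lower, among the higher Lcp1, the actin-bundling plastin of leukocytes, at 1220.2 against 23.1 CPM. The most abundant member, Tmsb4x, which sequesters actin monomers, stood at 11612 against 7706 CPM, a ratio of 1.51.

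Granule genes were present unevenly. Of 24 members 14 were measured, 5 only through the Ccl3/Ccl4-low cells. Of the other 9, 7 were at least 2-fold higher and 1, the annexin gene Anxa1, lower, at 679 against 1787 CPM. Slpi, a protease inhibitor, stood at 966 against 64.7 CPM, Mmp9, gelatinase B, at 895 against 21.1, Hp, haptoglobin, at 506 against 5.64, and Mmp8, neutrophil collagenase, at 167 against 2.98 CPM. Of the granule genes transcribed in bone marrow precursors, Mpo, Elane and Ctsg of the azurophil granules and Ngp and Camp of the later specific granules had no UMI in the 471 cells, and Prtn3 had 1 UMI. Ltf, lactoferrin, stood at 2509.96 CPM, but 1309 of its 1335 UMIs came from the 13 cells outside the granulocyte cluster, and its level was 63.1 CPM without them, against 193 CPM in all other cells. Pglyrp1, a peptidoglycan-binding granule protein, likewise stood at 1638 CPM with and 442 CPM without them, against 544 CPM. Both are among the 7 counted as higher and were lower than in all other cells once the 13 cells were left out.

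The cells held abundant messages of inflammatory mediators outside the pair that chose them. Cxcl2, a ligand of CXCR2, stood at 9485 CPM (9225 to 9751) against 453 CPM, 20.9-fold; per cell it ranged from 0 to 84821 CPM, median 7767, with a UMI in 412 of 471 cells. Il1b, the precursor of interleukin-1 beta, stood at 2709 CPM (2571 to 2853) against 30.8 CPM, 88.1-fold (82.8 to 93.7), with a per-cell median of 1786 CPM. Csf1, macrophage colony-stimulating factor, stood at 1171 against 24.1 CPM, Spp1, osteopontin, at 2949.9 against 115, Il1rn, the interleukin-1 receptor antagonist, at 741 against 32.3, and Tnf, tumour necrosis factor, at 212 against 8.92 CPM. Of 24 cytokine and growth factor genes 17 were measured, 5 only through the Ccl3/Ccl4-low cells. Of the other 12, 4 were at least 2-fold higher and 5 lower, among the lower Areg, amphiregulin, at 67.7 against 817 CPM and Hbegf, a further EGF receptor ligand, at 102 against 513 CPM. Of 16 chemokines outside the rule 11 were measured, none only through these cells, and 5 were at least 2-fold higher and 1 lower, the last being Cxcl16 at 31.96 against 79.7 CPM. Ccl2, 1 of the 5, was under 2-fold in the 458 cells of the granulocyte cluster, with a log2 ratio of 0.44, as 270 of its UMIs came from the 13 cells of other clusters.

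Of 20 apoptosis and survival genes 17 were measured, 8 only through the Ccl3/Ccl4-low cells. Of the other 9, 6 were at least 2-fold higher and none lower. Mcl1, on which neutrophil survival depends, stood at 2032 against 351 CPM, and Bcl2a1b, a BCL2 relative with near-identical copies whose counts may be shared, at 609 against 12.6 CPM. Of 27 interferon-stimulated genes 15 were measured, 8 only through these cells, and 3 of the other 7 were at least 2-fold higher and none lower. Among the 3, Ifitm2, which blocks viral entry, stood at 3328 against 650.5 CPM. Slfn4, a schlafen of myeloid cells, stood at 164 against 1.57 CPM and was measured only through these cells. Of 21 NF-kappaB subunit and feedback genes 20 were measured, 5 only through these cells, and 7 of the other 15 were at least 2-fold higher and none lower, the inhibitor Nfkbia being the most abundant at 1401 against 417 CPM. Fth1, ferritin heavy chain, was among the most abundant messages of these cells, at 27435 against 3762 CPM, and Acod1, which makes the metabolite itaconate, stood at 998 against 8.71 CPM. Of 16 cell cycle genes 9 were measured and 7 were lower by 2-fold or more, as were 7 of 12 translation factors, with none higher in either list. Members under 20 CPM in the Ccl3/Ccl4-low cells were not counted apart, and the filter fixed their direction. Of 23 hypoxia and glycolysis genes 21 were measured, 3 only through these cells, and of the other 18, 1 was at least 2-fold higher and 6 lower. Ldha, lactate dehydrogenase, stood at 256 against 558 CPM. The lactate exporter Slc16a3, 1 of the 3 measured only through these cells, stood at 256 against 11.3 CPM. Among genes of at least 200 CPM in all other cells, the widest ratios on the lower side were those of Gpha2, a limbal stem cell marker, at 133 against 1722 CPM (12.9-fold lower), Areg, and the water channel Aqp3 at 28.2 against 338 CPM. The histone gene Hist1h2ap, expressed during DNA replication, stood at 28.2 against 299.9 CPM. The limit on Krt5 and Krt14 selected against epithelial cells.

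**Figure D3:**
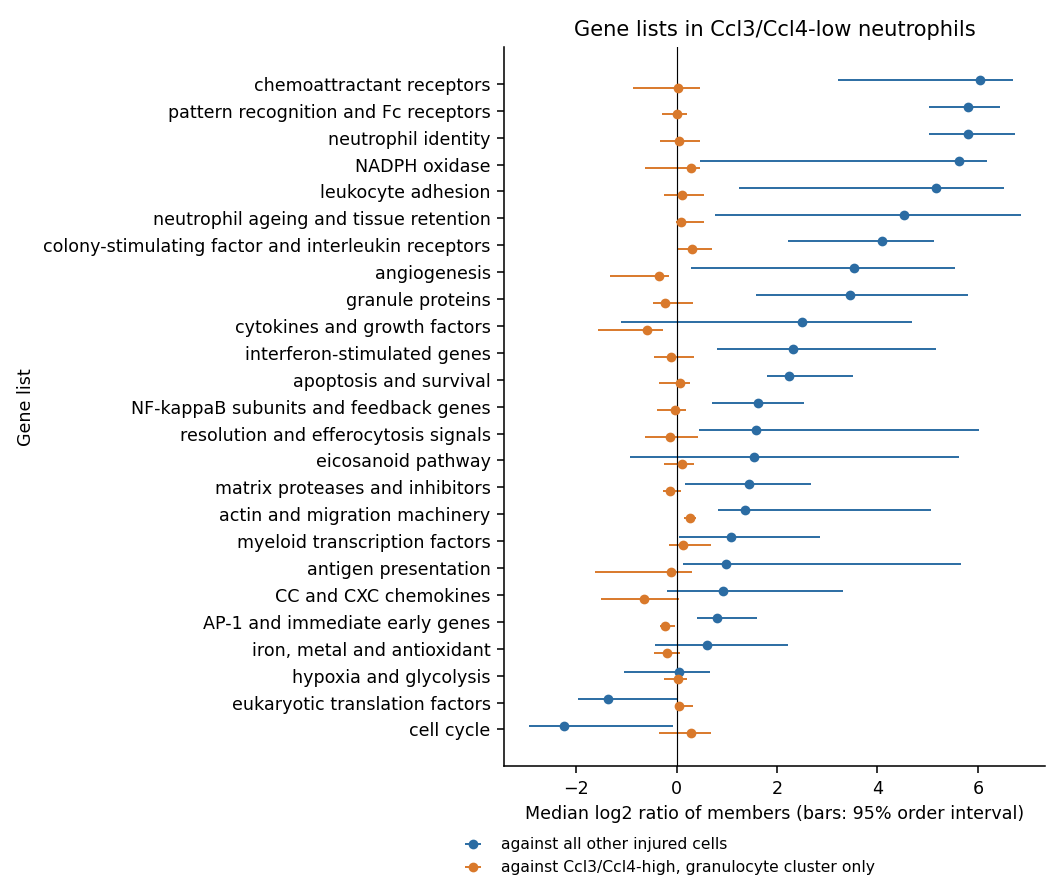
Median log2 ratio of the measured members of 25 gene lists (x axis) in Ccl3/Ccl4-low neutrophils against all other injured cells (blue) and, within the granulocyte cluster, against Ccl3/Ccl4-high neutrophils (orange), with bars for the 95% interval from the order of the members. Blue medians span from below -2 to above 6 and orange medians stay within 1 log2 unit of 0. Members measured only through the Ccl3/Ccl4-low cells had to differ, which raises the blue medians. Any member measured only through all other cells had to be lower, which lowers the blue medians.

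The comparison with Ccl3/Ccl4-high neutrophils asks what else differs across the Ccl3 and Ccl4 limit. Of 4847 measured genes 475 (9.8%) were at least 2-fold higher and 128 (2.64%) at least 2-fold lower in the Ccl3/Ccl4-low cells. Within the granulocyte cluster the counts were 284 of 4631 (6.13%) higher and 112 (2.42%) lower. The 15 genes with the largest ratio on the higher side, Ltf, Psca, Prss27, Plet1, Csta1, Plac8, Muc4, Apod, Cxcl14, Ecm1, Mal, Ly6a, Ifit1bl1, Krt7 and Serpina3n, were carried by the 13 cells of other clusters. For example, 203 of 211 Psca UMIs and 246 of 267 Serpina3n UMIs came from them, and Psca stood at 397 CPM with and 19.4 CPM without these cells. The differences that follow are therefore given within the granulocyte cluster, 458 against 357 cells.

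Ccl3 and Ccl4 were lower by the choice of cells, and other chemokine and cytokine messages were lower with them. Cxcl2 stood at 11783 CPM in the Ccl3/Ccl4-low and 29729.9 CPM in the Ccl3/Ccl4-high cells, a ratio of 0.396 (0.383 to 0.410), with per-cell medians of 8149 and 20804 CPM. The 2 groups overlapped widely, from 0 to 84821 CPM in the low and from 0 to 132829 CPM in the high cells. Cxcl3, a close relative of Cxcl2, stood at 558 against 1812 CPM, a ratio of 0.308 (0.264 to 0.359), with a UMI in 80 of all 471 low and 137 of all 358 high cells. Spp1 stood at 3669 against 7725 CPM, a ratio of 0.475 (0.446 to 0.506), Il1a at 84.9 against 250.2 CPM, and Tnf at 272 against 423 CPM. Il1b differed less, at 3407 against 4130.03 CPM, a ratio of 0.825 (0.766 to 0.888), and Csf1 stood at 1502 against 1366 CPM, a ratio of 1.10 (0.974 to 1.24). Ccl2, which draws monocytes, stood at 262 against 633 CPM here but at 711 against 622 CPM over all gated cells, the opposite order, with 270 of its 378 UMIs in the 13 cells of other clusters. Of 16 chemokines outside the rule 10 were measured, and of 24 cytokines 14. Of these, 4 chemokines and 5 cytokines were at least 2-fold lower and none higher, with medians of -0.65 and -0.60, beside a median of 0.14 for all 4631 genes. Csf3, 1 of the 5 cytokines, stood at 9.71 against 63.3 CPM and was measured only through the Ccl3/Ccl4-high cells, so it had to differ.

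Cxcl2 and Cxcl3 lie on chromosome 5 on the plus strand of GRCm38, Cxcl2 (ENSMUSG00000058427) at 90903871 to 90905938 and Cxcl3 (ENSMUSG00000029379) at 90786103 to 90789600, and Ccl3 (ENSMUSG00000000982) lies on chromosome 11 at 83647844 to 83649355 on the minus strand. The promoters of Cxcl2 and Cxcl3 are shown because both messages were lower in these cells, and that of Ccl3, which the rule made lower, for comparison. Each line gives bases -150 to -31 from the RefSeq start (build GRCm38.p6), 5′ to 3′ on the gene's strand, with matches to GGGNNNTTCC, a kappaB motif to which NF-kappaB binds, on either strand in capitals.
Cxcl2, chr5:90903749-90903868, plus strand: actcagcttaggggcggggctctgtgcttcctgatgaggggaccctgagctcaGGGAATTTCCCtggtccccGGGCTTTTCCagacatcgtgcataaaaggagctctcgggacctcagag
Cxcl3, chr5:90785951-90786070, plus strand: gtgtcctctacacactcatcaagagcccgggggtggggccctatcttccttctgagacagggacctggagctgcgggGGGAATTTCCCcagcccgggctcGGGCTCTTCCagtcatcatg
Ccl3, chr11:83649409-83649528, minus strand: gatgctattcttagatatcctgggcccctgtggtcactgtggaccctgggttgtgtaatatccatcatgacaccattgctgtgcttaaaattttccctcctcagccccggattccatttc
Within 250 bases before the start, Cxcl2 and Cxcl3 each held 3 matches, of which 2 overlap on opposite strands, and Ccl3 held none. The same search found 1 match before Csf3r and none before Spp1 (at either of its starts), Cxcr2, Il1b, S100a8 or S100a9. Of 32851 promoters of that length 4.65% held the motif. Neither TGANTCA, an AP-1 motif held by 6.75% of promoters, nor TTGCNNAA, a C/EBP motif held by 9.56%, was found in the 3 windows. A match describes letters and is not shown to be a site.

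Single genes of other lists were also lower, while the lists of hypoxia and glycolysis genes and of pattern recognition receptors had medians of 0.02 and 0.01. Slc7a11, the cystine importer that feeds glutathione synthesis, stood at 687 against 1283 CPM, a ratio of 0.535 (0.460 to 0.623). Hcar2, a receptor for hydroxybutyrate and niacin, stood at 631 against 1415 CPM, Nlrp3, an inflammasome sensor, at 391 against 725, and Ccrl2, which binds chemerin, at 388 against 705 CPM. Lcn2, which binds bacterial iron carriers, stood at 313 against 661 CPM, the coagulation factor X gene F10 at 160.1 against 293, and Thbs1, thrombospondin 1, at 730.4 against 1352 CPM. Retnlg stood at 72.8 against 354 CPM, a ratio of 0.206 (0.133 to 0.309), but in few cells, 20 of 471 low and 26 of 358 high. The stefins, cytosolic inhibitors of cysteine proteases, went the same way: Cstdc4 stood at 1677 against 3259 CPM, Csta3 at 82.5 against 213 and Csta2 at 41.2 against 213 CPM. The stefin genes are near-identical neighbours, so how counts divide among them is uncertain.

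Several other receptor and regulator genes were higher in the Ccl3/Ccl4-low cells, most by less than 2-fold. Of 19 colony-stimulating factor and interleukin receptor genes 1, Ifngr1, was at least 2-fold higher and none lower. Of 11 measured chemoattractant receptors none was higher and 1, Hcar2, lower. Of all 4631 genes 6.13% were higher and 2.42% lower, so nothing about the 2 lists is read from these counts. The median log2 ratio of all 4631 genes was 0.14, above 0, and the ratios that follow are not corrected for it. Csf3r stood at 944 against 532 CPM, a ratio of 1.77 (1.49 to 2.12), with per-cell medians of 826 and 0 CPM and a range from 0 to 6784 CPM in the low cells. Cxcr2 had a ratio of 1.46 (1.16 to 1.84), Il1r2 of 1.36 (1.24 to 1.49) and Cxcr4 of 1.39 (1.05 to 1.83). Il17ra, a receptor chain for interleukin-17, stood at 298 against 173 CPM, and Stat3, which relays the signal of the receptor encoded by Csf3r, at 289 against 158 CPM. Spi1, the myeloid master factor PU.1, stood at 400.4 against 250.2 CPM. The widest ratios on this side among genes of at least 200 CPM were those of Ythdc1, a reader of methylated RNA, 2.34 (1.61 to 3.46), Cytip, which limits integrin adhesion, 2.28 (1.51 to 3.50), and Apoe, apolipoprotein E, 2.07 (1.52 to 2.84). Gcnt2, Igfbp6, Fgd3, Emp3 and Fgl2 had ratios of 1.84 to 2.01. The list of 9 macrophage markers summed to 527 CPM in the low and 328 CPM in the high cells of the cluster, of which Apoe made up 357 and 173 CPM and the other 8 genes 169.8 and 155 CPM. The part of macrophage RNA in these ratios was not tested. Intervals included 1 for Trem1, with a ratio of 1.10 (0.926 to 1.30), for Hdc, histidine decarboxylase, with 1.02 (0.889 to 1.18), and for Ccr1, with 0.959 (0.873 to 1.05). S100a8 and S100a9, which served the gate of both groups, had ratios of 1.02 and 0.982.

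Levels in 5 steps of Ccl3+Ccl4 within the granulocyte cluster showed a graded change in several of these genes. The steps held 125 cells at 0, 197 above 0 and below 5000 CPM, 136 at 5000 to 10000, 154 at 10000 to 20000 and 203 at 20000 CPM or more, with median depths of 831, 845, 848.5, 860 and 921 UMIs. How far depth adds to the pattern was not tested. Of 1533 genes with a mean of at least 100 CPM, 30 (1.96%) were higher at each of the 4 steps and 73 (4.76%) were lower at each. Cxcl2 stood at 7601, 11756, 15244, 18422 and 38034 CPM from the first step to the last, so cells without any Ccl3 or Ccl4 UMI still held Cxcl2. Spp1 stood at 2847, 3249, 4935, 6874 and 8350.04 CPM. Il1rn, the antagonist of interleukin-1, stood at 604 (464 to 773) at the first and 1596 CPM (1426 to 1781) at the last step, Tnf at 192 (117 to 296) and 464 CPM (374 to 568), and Slc7a11 at 594 and 1506 CPM. Il1a had 19.2 CPM (2.32 to 69.2) at the first step and 329 CPM at the last. Fth1, Thbs1, Ccl6, Ccl9, Ccrl2, Fpr1, Nfkbia and Mmp8 were also higher at each step.

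In the other direction Cxcr2 stood at 623 (481 to 794), 499, 455, 414 and 309 CPM (237 to 396), highest in cells with no Ccl3 or Ccl4. Spi1 stood at 460.1 CPM at the first and 209 CPM at the last step, Cxcr4 at 383 and 224, Selplg at 403 and 249, and Lrg1, a secreted glycoprotein stored in neutrophil granules, at 450.5 and 169.6 CPM. Among structural genes Actb stood at 8195 and 4579 CPM and Tmsb4x at 12393 and 7846 CPM. Since Ccl3 and Ccl4 take up part of each cell's total, levels were also taken without the 6 genes of the rule: Actb then stood at 8718 and 5133 CPM, Cxcr2 at 663 and 347 CPM, and the order of the steps was kept by both.

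**Figure D4:**
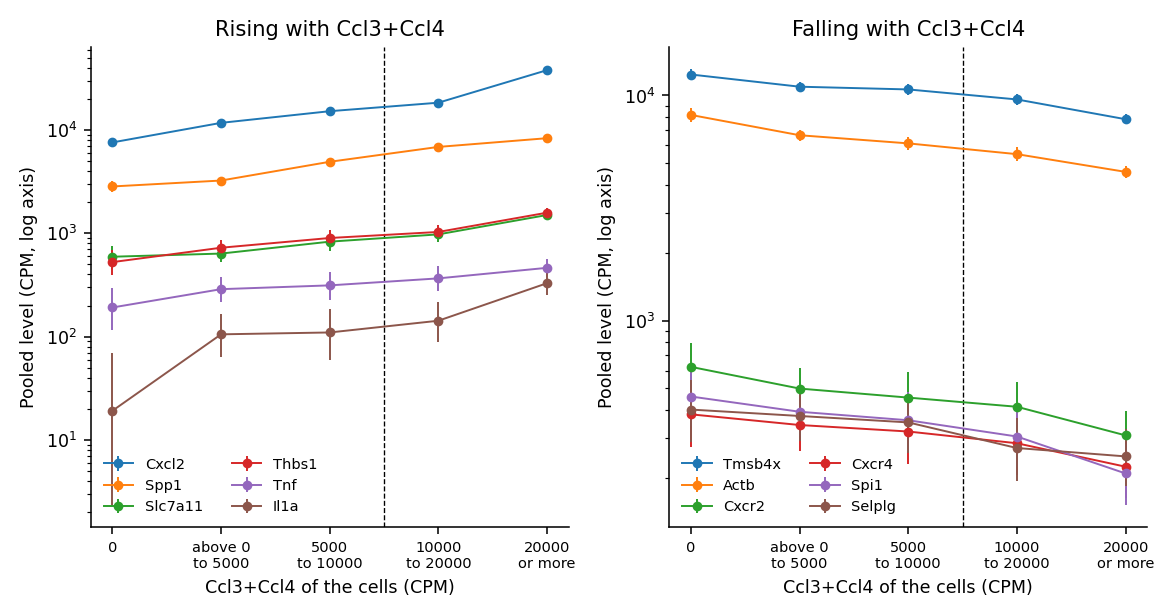
Pooled level of 12 genes (y axis, CPM, log axis) in 5 steps of Ccl3+Ccl4 per cell (x axis, CPM) within the granulocyte cluster, with 95% Poisson bars; the dashed line is the limit between Ccl3/Ccl4-low and Ccl3/Ccl4-high cells. Cxcl2, Spp1, Slc7a11, Thbs1, Tnf and Il1a are higher at each step (left), and Tmsb4x, Actb, Cxcr2, Cxcr4, Spi1 and Selplg lower (right).

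The 458 cells of the granulocyte cluster differed among themselves, and clustering them again gave 4 sub-clusters. Genes that formed these sub-clusters are a description of them. Sub-cluster 3, of 78 of the 458 cells, was marked by stefins: Cstdc4 stood at 8511 CPM (7856 to 9206) against 198 CPM in the other 3, with a UMI in 75 of 78 cells, and Stfa2l1 at 5183 against 269 CPM, in 69 cells. These sub-cluster 3 cells also held Retnlg at 232 against 38.4 CPM, in 8 cells, and Mmp8 at 382 against 165 CPM, and had the highest S100a8+S100a9 level, a per-cell median of 73084 CPM against 53398 to 54643 in the others. A stefin UMI was found in 29.5% (25.3 to 33.9) of the 458 low cells and 36.7% (31.7 to 41.9) of the 357 high cells after thinning, and in 8.71% of thinned Krt5/Krt14-high cells. Before thinning the shares were 34.9%, 43.1% and 66.9%, at median depths of 844, 892 and 11828 UMIs. Cstdc4 (ENSMUSG00000079597, 36184212 to 36188111) and Stfa2l1 (ENSMUSG00000059657, 36156811 to 36161953) lie in the same region of chromosome 16 of GRCm38, on the plus strand.

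Sub-cluster 2, of 179 cells (39.1%, 34.6 to 43.7), held the receptor gene Clec4e at 3703 CPM (3406 to 4019.5) against 1277 CPM, in 173 cells. The other 3 differed in Clec4e, with 2469 CPM (2122 to 2856) in sub-cluster 3, in 55 of its 78 cells. Sub-clusters 0 and 1 held 933 and 457 CPM. Sub-cluster 2 also held Tlr2, which senses bacterial lipoproteins, at 479 against 206 CPM. Tnfaip2, a gene induced by tumour necrosis factor, stood at 1042 against 524 CPM. In sub-cluster 0, of 145 cells (31.7%, 27.4 to 36.1), mitochondrially encoded messages were higher, mt-Co1 at 2918 against 1017 CPM, with a mitochondrial share per cell of 0.880% at the median against 0.533% in the other 3. The summed level is carried in large part by 4 cells above 10% mitochondrial UMIs, which held 1056 of the 2434 mitochondrial UMIs of sub-cluster 0. Without these 4 cells, an alternative chosen after seeing the data, mt-Co1 stood at 1598 CPM. The same 145 cells held Apoe at 559.7 against 259 CPM, in 37 cells, the endoplasmic reticulum chaperone gene Pdia3 at 209 against 86.3, and less of Clec4e, 933 against 2789.99 CPM, and Slpi, 328 against 1625 CPM. Without the 4 cells above 10% mitochondrial UMIs, Apoe stood at 457, Pdia3 at 205, Clec4e at 921 and Slpi at 307 CPM. Sub-cluster 1, of 56 cells (12.2%, 9.37 to 15.6), was led by the interferon-stimulated genes Rsad2, at 437 against 22.1 CPM, and Isg15, at 655 against 60.8 CPM. These came from 5 and 7 of the 56 cells, so they do not describe most of its members. Sat1, a polyamine enzyme, was held by 40 of the 56 cells, at 2701 against 989.6 CPM. Over the 458 thinned cells 5.46% (3.56 to 7.95) held a UMI of Isg15, Rsad2, Ifit1 or Ifit3 and 1.31% (0.482 to 2.83) held 3 or more, against 6.44% and 1.12% of the high cells and, with a UMI, 1.34% of Krt5/Krt14-high cells. Before thinning 7.86% of the low, 8.68% of the high and 16.5% of the Krt5/Krt14-high cells held a UMI. Median depths of the sub-clusters ranged from 815 to 871 UMIs, and Ccl3+Ccl4 medians from 2421 to 3476 CPM, and 20.5% to 32.4% of each held no Ccl3 or Ccl4 UMI.

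**Figure D5:**
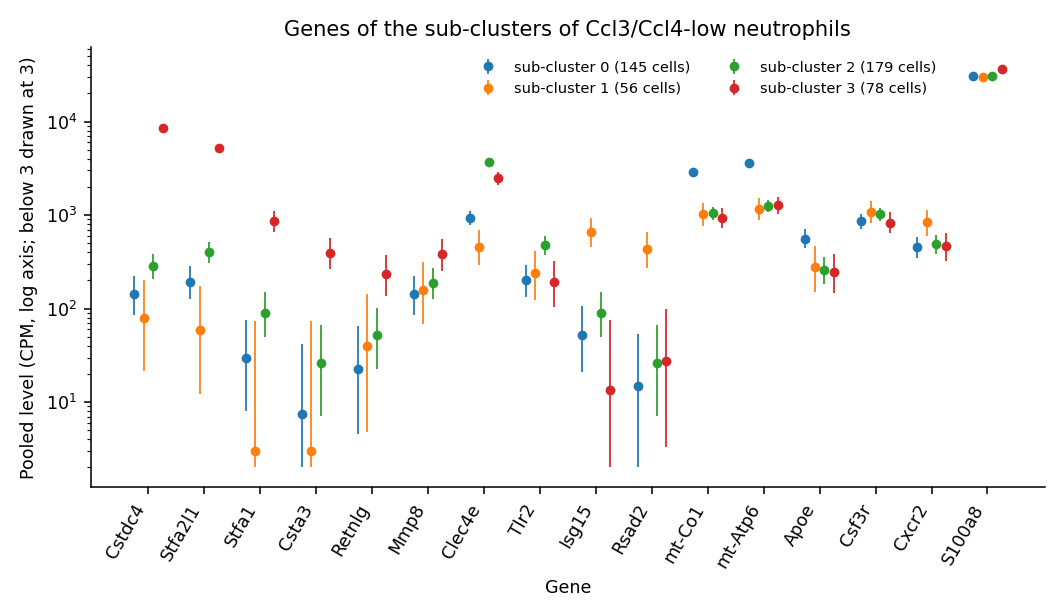
Pooled level of 16 genes (y axis, CPM, log axis, levels below 3 drawn at 3) in the 4 sub-clusters of the 458 Ccl3/Ccl4-low neutrophils of the granulocyte cluster, with 95% Poisson bars. Stefins separate sub-cluster 3. Clec4e is highest in sub-cluster 2, at 3703 CPM, beside 2469 CPM in sub-cluster 3. Mitochondrial messages are highest in sub-cluster 0, in large part through 4 cells. Csf3r lies between 832 and 1092 CPM in each.

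Markers of other cell types were counted in the same cells. The list of 14 epithelial genes summed to 5387 CPM in the 471 cells and 3637 CPM in the 458, against 3515 CPM in the Ccl3/Ccl4-high cells of the cluster and 30684 CPM in Krt5/Krt14-high cells. The list includes Krt5 and Krt14, which the rule limits and which define the Krt5/Krt14-high cells. Without them the other 12 genes summed to 4396, 2633, 2488 and 19312 CPM in the same order. All of its genes had a UMI and 95.1% of cells held at least 1. Krt5 and Krt14 were absent from 179 of the 471 cells, and with a limit of 1000 CPM in place of 3000 the share of Ccl3/Ccl4-low cells was 2.38% of analysed cells. Stromal markers summed to 3835 CPM over 7 genes in the 471 cells and 728 CPM in the 458, against 43909 CPM in collagen and decorin-high cells. The 9 macrophage markers summed to 852 and 527 CPM, against 27070 CPM in C1q-positive cells, and dendritic markers to 271 and 192 CPM, against 40774 CPM in MHC class II-high cells, with 4 of 8 at 0. The collagen and decorin, C1q and MHC class II genes of these lists also define the cells set beside them. Those cells were therefore high by choice. All 8 mast cell or basophil and all 5 erythroid markers were at 0, and the T or NK list held 7.52 CPM with 6 of 8 at 0, Cd3e among them. The eosinophil list summed to 48.9 CPM with 5 of 7 at 0, Prg2 among them, and nearly all from Siglecf, at 47.00 CPM with 25 UMIs in 23 cells. Their part in the results was not tested.

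In the uninjured library the same rule found 4 of 7156 cells, 0.0559% (0.0152 to 0.143). None of the 4 held S100a8, Csf3r, Cxcr2, Il1r2, Retnlg, Srgn or Tyrobp. They held 54 to 149 UMIs of S100a9 and 7245 to 17038 UMIs in all, and no comparison of neutrophils between the libraries was made.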

How the data were processed

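The data are single-cell RNA-seq matrices of 1 uninjured and 1 NaOH-injured library of mouse cornea and limbus. The deposited values are raw UMI counts per gene and barcode, which the authors made with Cell Ranger, version 7.0.1 according to the matrix headers. The submitters' processing notes name the build GRCm38. No further filter on cells is stated in the sources used here. Gene positions are from GENCODE M21.

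Groups came from the treatment labels. Levels are summed UMIs of a population scaled to 1000000 of its UMIs (CPM). A ratio sets counts under 3 to 3, and a gene was measured at a mean of at least 20 CPM and counted past 2-fold. With 1 library per condition no test was made. Intervals are 95% exact Poisson (levels), conditional binomial (ratios) and Clopper-Pearson (shares). Comparator cells were gated at Krt5+Krt14 of 3000 CPM, collagen and decorin genes of 5000 CPM, C1q genes of 3000 CPM and 5 UMIs, and MHC class II genes of 10000 CPM. Clusters are Leiden clusters (scanpy 1.11.5, 2000 variable genes, 30 components, resolution 1; sub-clusters 500 genes, 10 components, resolution 0.5), without removal of doublets, since the doublet caller marked only 2 cells; removing the 724 highest scores was an alternative. Python 3.11.15, numpy 2.4.6 and scipy 1.17.1 were used, and the ratio code was tested on simulated counts.

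The members, the 25 gene lists and the 15 marker lists were chosen with earlier results of these data known. Named genes are list members and, per contrast and direction, the 15 genes of at least 200 CPM with the largest ratio, outside mitochondrial, ribosomal, haemoglobin and unnamed genes and the genes of the rule. For a sub-cluster they are the 8 genes with the largest ratio. The same rule was applied within the granulocyte cluster after the data were seen. Genes compared between sub-clusters or Ccl3+Ccl4 steps beyond these were chosen after their values were seen.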

Additional observations from a re-analysis of the deposited data

How the results depend on the processing

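No paired analysis was possible because each condition is 1 library. The share of analysed injured cells that are Ccl3/Ccl4-low neutrophils, 5.23%, was 1.31% with at least 1000 UMIs, 4.45% with S100a8+S100a9 of at least 20000 CPM, 3.72% and 6.95% with Ccl3+Ccl4 limits of 5000 and 20000 CPM, 2.38% with Krt5+Krt14 below 1000 CPM and 3.85% with cells high in other keratins left out. The share of S100a8/S100a9-gated cells that are Ccl3/Ccl4-low, 56.8%, was 48.2% with at least 1000 UMIs, and 40.4% and 75.5% with the limits of 5000 and 20000 CPM. Against all other injured cells, 446 genes were higher and 318 lower at a mean of at least 100 CPM, and 12987 and 2122 with every gene that had a UMI, where the floor of 3 counts weighs most.

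Against Ccl3/Ccl4-high neutrophils the count of 475 higher genes was 835 with at least 1000 UMIs, 740 with Krt5+Krt14 below 1000 CPM, 304 by the mean over cells, 63 at 100 CPM, 903 with every gene, and 284 within the granulocyte cluster, an alternative chosen after seeing the data. The count of 128 lower genes was 538 with at least 1000 UMIs, 385 with Krt5+Krt14 below 1000 CPM, 257 after thinning to 500 UMIs, 26 at 100 CPM and 508 with every gene. Without the cells of other clusters the log2 ratio against Ccl3/Ccl4-high neutrophils changed sign for Muc4 (-0.093), Cxcl14 (-0.42), Ly6a (-0.28), Ifit1bl1 (-0.053), Krt7 (-0.15) and Serpina3n (-0.17). With S100a8+S100a9 of at least 20000 CPM it did so for Cxcl14 (-0.17) and Serpina3n (-0.10), and with other keratins left out for Plac8 (-0.20), Ifit1bl1 (-0.86) and Krt7 (-0.37). The causes of these changes were not tested. Over the alternatives, 10 recomputed list medians against all other injured cells lay outside the 95% interval of the main value and 315 inside, against Ccl3/Ccl4-high neutrophils 27 and 273, and 12 of these 27 were with at least 1000 UMIs. Of the genes named for the largest ratios, 128 values against all other cells lay outside and 262 inside, with no change of sign, and against Ccl3/Ccl4-high neutrophils 121 lay outside, 228 inside and 11 changed sign. List members counted as 2-fold higher against all other cells that turned lower without the 13 cells of other clusters were Asprv1, Pglyrp1, Ltf, Fcgr2b, Il6, Ecm1, C1qc, Plac8 and Rgs5, with log2 ratios of -0.090 to -2.36.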

Other observations

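The granulocyte cluster held 202 cells that the gate left out, with a median of 807 UMIs. After thinning to 500 UMIs, 73.8% (67.1 to 79.7) of them held a UMI of S100a8 or S100a9, 88.1% (82.8 to 92.2) a UMI of Ccl3 or Ccl4, 69.3% (62.4 to 75.6) a UMI of Csf3r, Cxcr2 or Il1r2, and 28.2% (22.1 to 35.0) a stefin UMI. Before thinning these shares were 82.2%, 89.6%, 77.2% and 29.7%. Their summed Ccl3+Ccl4 level was 18782 CPM and their S100a8+S100a9 level 26124 CPM, against 3363 and 65523 CPM in the 458 Ccl3/Ccl4-low cells of the cluster. In the 357 Ccl3/Ccl4-high cells of the cluster these levels were 32589 and 65600 CPM. The rule chose the cells by these same genes and the 202 cells were not split on Ccl3+Ccl4, so the differences describe the choice.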
